A study of Bos taurus with 6 samples.

Results

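The genes described here belong to the unfolded protein response and the amino acid stress response: the transcription factors ATF4, ATF6, XBP1 and DDIT3, the degradation factor HERPUD1, the chaperone CALR, the enzyme ASNS and the pseudokinase TRIB3. Every array probe annotated with one of these 8 symbols was taken, which gave 10 of the 43794 named probes. Of these, 9 carried the symbol itself and 1 carried XBPP1, which RefSeq lists as a synonym of XBP1. Whether that probe reads XBP1 alone was not tested. No probe given here carried ATF6, and that gene is not analysed here. Of the 10 probes, 9 from 7 genes were bright enough to be tested, among 35034 tested probes in all.

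The RNA came from bovine blastocysts and bovine granulosa cells, both Holstein, co-hybridised on 6 two-colour oligonucleotide arrays. Blastocysts, embryos with a fluid cavity enclosed by trophectoderm, were produced in vitro from abattoir oocytes of 3 to 6 mm follicles, fertilised with semen of 3 bulls, cultured in the medium SOF with bovine serum albumin and collected on day 7. Granulosa cells, the somatic lining of the ovarian follicle, came from lactating cows given follicle-stimulating hormone in 6 injections of 40 mg, and were taken by needle 44 h after the last one. The labels give day 8 to 11 after oestrus and follicles over 5 mm, whose aspiration preceded the first injection by 36 h. The arrays hold 3 replicates, each in both dye orientations, with blastocyst RNA in Cy3 on 3 arrays and in Cy5 on 3. The RNAs were pools, and the sources used here do not give the number of animals in a pool. A p-value for a ratio between the cell types rests on how far these 3 pools spread, part of which may be technical. Limma moderates that spread with the spread of all tested probes. The F tests between replicates and the dye terms, given below, use the 6 arrays singly. In such bulk RNA, fewer cells of a type and less RNA per cell cannot be told apart.

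Proteins that misfold in the endoplasmic reticulum (ER) activate the membrane sensors PERK (EIF2AK3), IRE1 (ERN1) and ATF6. IRE1 splices the XBP1 RNA, ATF6 is cleaved to a transcription factor, and PERK phosphorylates the initiation factor eIF2alpha. Phosphorylated eIF2alpha slows general translation while favouring that of ATF4, and the kinase GCN2 (EIF2AK4) does the same when amino acids run short. ATF4 induces ASNS, DDIT3 and TRIB3. These roles are known mainly from human, mouse and yeast cells. Splicing, cleavage and translation are not read by the arrays, which measure RNA abundance.

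The transcripts did not differ in one direction between embryo and follicular cells. HERPUD1 was 22.3-fold lower in blastocysts, and ATF4 and XBP1 were 2.12-fold and 2.03-fold lower. ASNS was 3.82-fold higher. CALR, DDIT3 and TRIB3 did not pass. A probe passed where limma's adjusted p was under 0.05 and the log2 ratio was 1 or more in size, and each gene stood by its brightest probe. By this rule 4 of 7 tested genes passed, 1 higher and 3 lower in blastocysts, against 13.4% of the 13227 tested genes with a symbol (5.72% higher and 7.68% lower in blastocysts). The 4 genes had 1 passing probe each, so 4 of 9 tested probes passed, against 10.1% of all tested probes (4.95% higher and 5.19% lower in blastocysts). The ratio had the same sign on all 6 arrays for 9 of 9 tested probes, against 34.0% of all probes, and for 7 of 7 genes, against 41.0% of all genes. The replicate levels of the cell types did not overlap for 8 of the 9, against 41.7% of all, and the 6 channel levels did not for 6 of the 9, against 22.2% of all. The genes were chosen with earlier results of these data known, so these shares are descriptions.

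The calls depended on the replicates. Without replicate 1, HERPUD1 alone of the 7 genes passed. Without replicate 3, HERPUD1, ASNS and XBP1 passed. Without replicate 2, limma called 0 of the 9 member probes and 0 of 35034 probes in all, although 8 of the 9 had an unadjusted p under 0.05. No member changed sign in these fits.

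**Figure D1:**
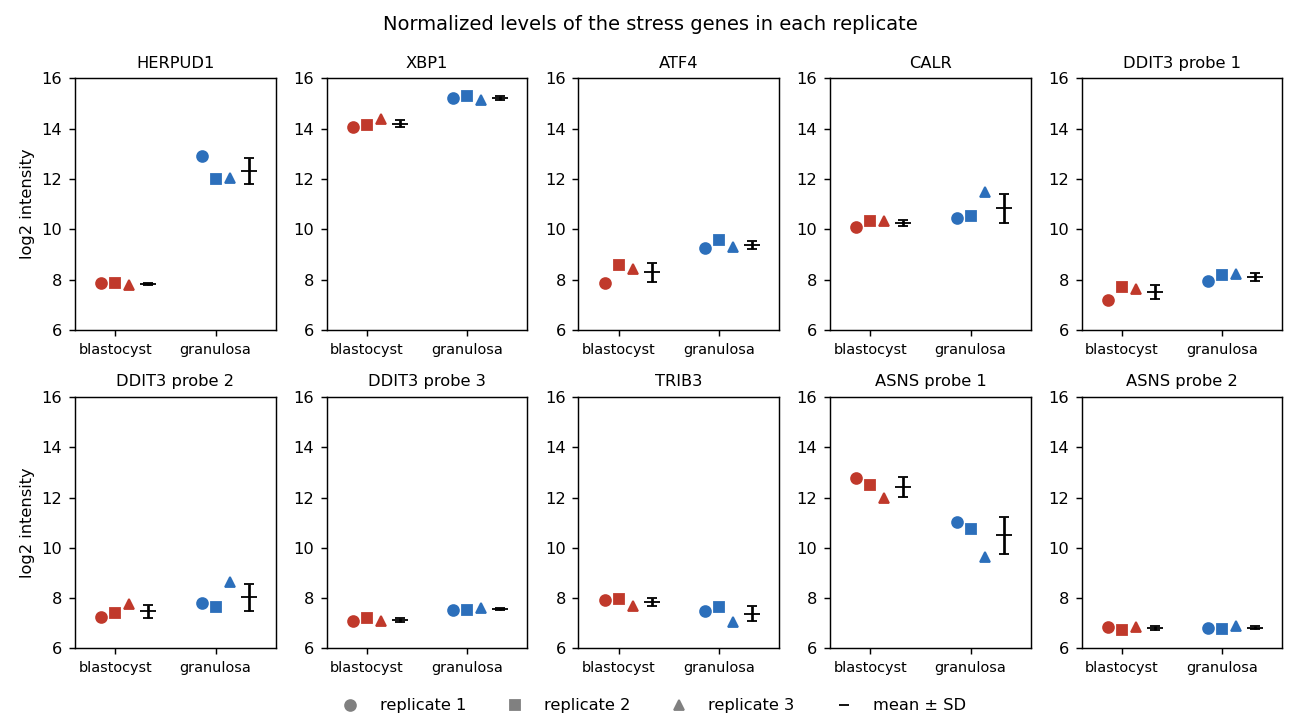
Normalized log2 intensity of the 10 probes in blastocysts (red, left) and granulosa cells (blue, right). Each symbol is a replicate averaged over both dyes, and the bar is the mean ± SD of 3 replicates. HERPUD1 is dim in blastocysts and bright in granulosa cells, XBP1 is bright in both, and ASNS probe 1 is brighter in blastocysts.

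Among the transcription factors, ATF4 is the main effector of phosphorylated eIF2alpha. Its normalized log2 intensity was 7.88, 8.58 and 8.42 in blastocyst replicates 1 to 3, against 9.26, 9.57 and 9.30 in granulosa replicates 1 to 3. All granulosa values lay above all blastocyst values. The log2 ratio was -1.09 ± 0.26 (SD, n = 3, adjusted p = 0.0235, 95% interval -1.47 to -0.71), so ATF4 fell only just past the ratio required. It missed that ratio without background correction (-0.92) and with the authors' net intensities (-0.92). Replicate 1 had the lowest ratio (-1.38), against -1.0 and -0.88 in replicates 2 and 3, and the ratio differed between replicates in limma's F test (adjusted p = 0.0089). The blastocyst level varied more among pools than the granulosa level, over ranges of 0.70 and 0.31.

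XBP1, the factor made active by IRE1 and a regulator of secretory capacity, was read at very high intensity. Raw intensities were 13654 to 28110 in blastocysts and 35889 to 38704 in granulosa cells. The granulosa side exceeded 30000, the mark set here for very bright signals, on all 6 arrays. Whether signals are compressed there was not tested, and a compressed ratio would be understated. Normalized log2 intensities were 14.08, 14.16 and 14.37 in blastocysts, against 15.22, 15.30 and 15.16 in granulosa cells, with no overlap. The ratio was -1.02 ± 0.21 (adjusted p = 0.0179, 95% interval -1.33 to -0.72). It also followed the dye. With blastocyst RNA in Cy3 the arrays gave -1.41, -1.53 and -1.19 in replicates 1 to 3, and with it in Cy5 they gave -0.88, -0.74 and -0.38 (dye term, adjusted p = 0.00273, against 40.7% of all tested probes with an adjusted p under 0.05). The 3 arrays with blastocyst RNA in Cy5 gave a mean of -0.67, short of the ratio required, as did median centring in place of loess (-0.77), no normalization (-0.96) and the authors' net intensities (-0.99). The direction was the same on all 6 arrays.

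DDIT3, the factor CHOP that ATF4 induces under lasting stress, was read by 3 probes that gave the same direction. The brightest had log2 intensities of 7.19, 7.71 and 7.61 in blastocysts, against 7.93, 8.19 and 8.21 in granulosa cells. Its ratio was -0.61 ± 0.13 (adjusted p = 0.0256, 95% interval -0.83 to -0.38), which passed the p-value but not the ratio required. The others gave -0.56 ± 0.33 (adjusted p = 0.103) and -0.41 ± 0.10 (adjusted p = 0.0367). All were dim. The brightest read 1.05 to 1.51 times the background threshold in blastocysts and 1.62 to 1.76 times in granulosa cells, the threshold being the level that 95% of the array's negative control spots stay under. A probe so close to background can understate a ratio.

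HERPUD1, a membrane protein that helps move misfolded proteins from the ER to the proteasome and a target of ATF6, XBP1 and ATF4, had the largest ratio of the 7 genes. Its log2 intensities were 7.86, 7.86 and 7.80 in blastocysts, against 12.93, 12 and 12.03 in granulosa cells. Averaged over both dyes, the blastocyst levels lay within 0.06 of each other and far below every granulosa level. By array they spread more, at 7.84, 7.61 and 7.62 in Cy3 and 7.88, 8.1 and 7.98 in Cy5. The log2 ratio was -4.48 ± 0.51 (adjusted p = 0.00763, 95% interval -5.18 to -3.79), lower than in all but 0.257% of tested probes. The call ended without replicate 2 (-4.65, adjusted p = 0.058). Raw intensities were 254 to 313 in blastocysts, 1.25 to 1.83 times the background threshold, and 4104 to 8307 in granulosa cells, 13.3 to 45.8 times the threshold. HERPUD1 was thus detected on all 6 arrays in both cell types, though close to background in blastocysts, where the level may be overstated and the ratio understated. Its ratios were -5.19, -4.55 and -4.63 with blastocyst RNA in Cy3 and -4.95, -3.73 and -3.84 with it in Cy5 (dye term, adjusted p = 0.0456).

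The HERPUD1 ratio differed between replicates (-5.07, -4.14 and -4.24, adjusted p of the F test 0.00167). Granulosa replicate 1 stood above replicates 2 and 3, while the blastocyst levels, averaged over both dyes and close to background, did not separate. Leukocyte markers were also highest in granulosa replicate 1. Of 11 such markers 7 were tested, and 6 of the 7 were brightest in that granulosa pool. Their summed normalized intensity was 1280, 966 and 1040 in blastocyst replicates 1 to 3, against 41600, 2980 and 1810 in granulosa replicates 1 to 3. LYZ carried most of the sum in granulosa replicate 1, with log2 intensities of 15.14, 9.32 and 9.53 in granulosa replicates 1 to 3. The next brightest markers in that pool were TYROBP (11.17, 9.37 and 7.01) and PTPRC (10.87, 8.68 and 8.46). CD68 was brightest in granulosa replicate 2 (8.59, 9.16 and 6.98). In blastocysts TYROBP was above background on 1 of 6 arrays and LYZ on 2. Erythrocyte markers, 3 of 5 tested, summed to 600, 521 and 501 in blastocysts, against 8360, 773 and 797 in granulosa cells. HBB carried that sum, with log2 intensities of 12.97, 8.85 and 8.95 in granulosa replicates 1 to 3, while HBA (7.36, 7.23 and 7.01) and SLC4A1 (7.42, 7.35 and 7.43) stayed dim there and had ratios of 0.35 and 0.08. The part of these cells in the HERPUD1 result was not tested. Without replicate 1 the HERPUD1 ratio was -4.19 (adjusted p = 0.0348).

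CALR, the calcium-binding lectin chaperone calreticulin, did not pass. Its log2 intensities were 10.11, 10.32 and 10.32 in blastocysts, against 10.47, 10.54 and 11.49 in granulosa cells. Every granulosa replicate was above every blastocyst replicate, but replicates 1 and 2 by little. The ratios were -0.36, -0.21 and -1.17 in replicates 1 to 3 (-0.58 ± 0.52, adjusted p = 0.19, 95% interval -1.29 to 0.13). Both arrays of replicate 3 showed the larger difference, at -1.20 and -1.15, and the F test separated the replicates (adjusted p = 0.000162). Without replicate 3 the ratio was -0.28. In that pool the endothelial markers had their lowest sum, at 6190, 5490 and 904 in granulosa replicates 1 to 3, with 6 of 6 tested, and so did leukocyte markers (1810, given above with the other pools). Theca markers, among them STAR, which granulosa cells also express, had sums of 18200, 27400 and 11900, with 7 of 7 tested. STAR (11.78, 13.65 and 7.64), ACTA2 (13.21, 13.26 and 12.59) and PTCH1 (12.03, 11.80 and 12.25) carried most of these theca sums. CYP17A1 (7.15, 7.13 and 7.05) and INSL3 (7.68, 7.79 and 7.58) stayed dim. KDR (12.16, 11.85 and 6.82) carried most of the endothelial sum in replicates 1 and 2, while CDH5 (7.23, 7.27 and 7.27) and CLDN5 (7.84, 7.68 and 7.46) stayed dim. In blastocysts the sums were 925 to 964 for endothelial and 7860 to 9680 for theca markers, of which NR2F2 was above background on no array. Granulosa markers were mixed, with 6 of 11 brightest in granulosa replicate 3. Log2 intensities in granulosa replicates 1 to 3 were 10.41, 8.72 and 13.11 for the aromatase gene CYP19A1 and 8.81, 8.88 and 10.38 for the hormone receptor gene FSHR. NR5A2 (11.85, 11.24 and 10.65) and GATM (11.25, 12.89 and 9.28) were dimmest in replicate 3, as was STAR, which is on both lists. The part of these differences between pools in the CALR result was not tested.

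**Figure D2:**
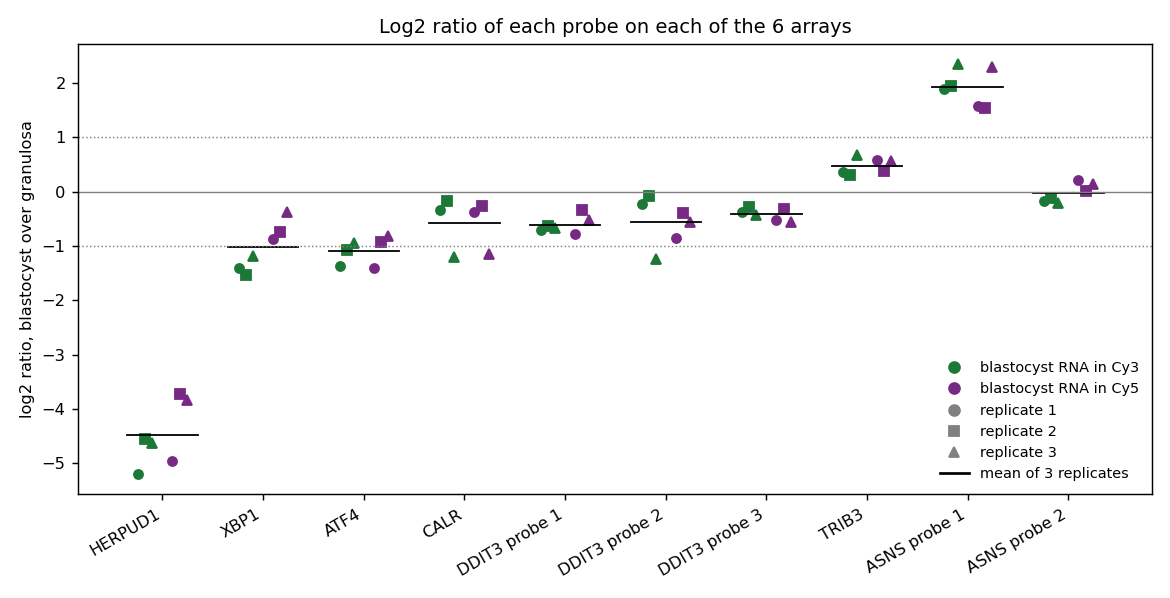
Log2 ratio of blastocyst over granulosa for each probe on each of the 6 arrays, green with blastocyst RNA in Cy3 and purple with it in Cy5, with symbols for replicates. The black line is the mean of 3 replicates and dotted lines mark a log2 ratio of -1 and 1. The 9 tested probes keep one sign on all arrays, the 2 dye orientations of XBP1 separate, and replicate 3 of CALR lies below replicates 1 and 2 in both orientations.

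ASNS makes asparagine from aspartate and glutamine and is a classic target of ATF4. It was higher in blastocysts while ATF4 was lower. Its brighter probe had log2 intensities of 12.78, 12.50 and 11.98 in blastocysts, against 11.04, 10.76 and 9.65 in granulosa cells. Every blastocyst pool was above every granulosa pool. The ratio was 1.93 ± 0.34 (adjusted p = 0.0132, 95% interval 1.46 to 2.41), higher than 97.8% of tested probes. Replicate 3 was dimmest in both cell types and had the largest ratio (2.32, against 1.73 and 1.74; F test, adjusted p = 0.00455). Without replicate 1 and without replicate 2 the ratio was 2.03 each time and the call ended (adjusted p = 0.0565 and 0.0758). The other ASNS probe was above background on no array in either cell type, at 0.882 to 0.942 times the threshold in blastocysts and 0.831 to 0.955 times in granulosa cells. It was not tested and bears on neither direction.

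TRIB3, a pseudokinase induced by ATF4 and DDIT3 that dampens ATF4, leaned towards blastocysts. Its log2 intensities were 7.94, 7.97 and 7.68 in blastocysts, against 7.47, 7.63 and 7.06 in granulosa cells, and the replicates did not overlap. The ratio was 0.48 ± 0.14 (adjusted p = 0.0415, 95% interval 0.24 to 0.71), below the ratio required. The signal was 1.30 to 1.75 times the threshold in blastocysts and 0.947 to 1.34 times in granulosa cells. As with DDIT3, the probe was dim. Among the 7 genes, ASNS and TRIB3 had positive ratios and the other 5 negative ones, and these signs held in every alternative processing tried.

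**Figure D3:**
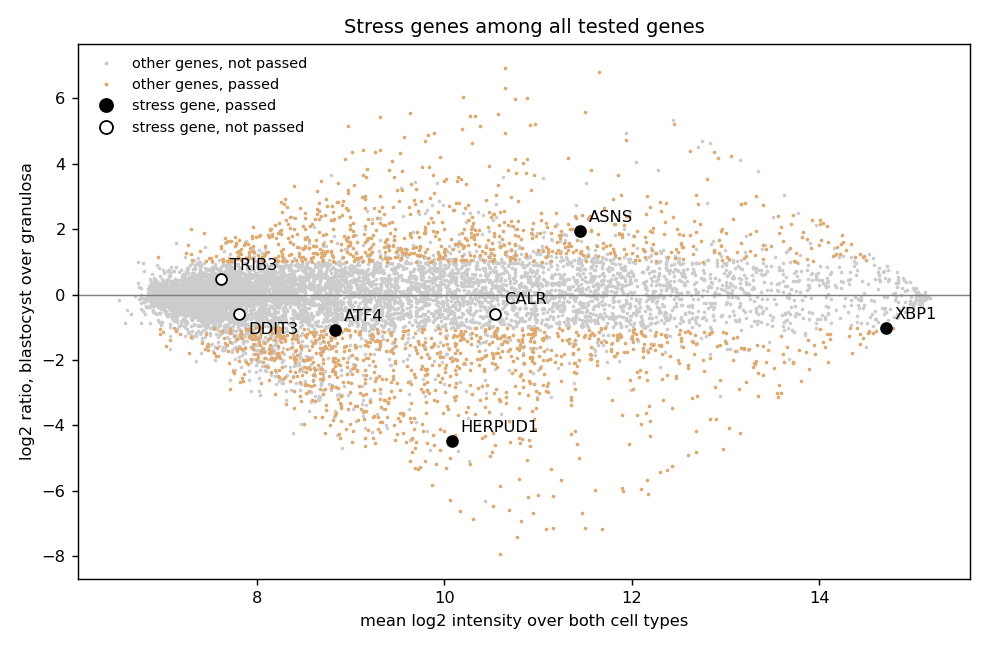
Log2 ratio of blastocyst over granulosa against mean log2 intensity for 13227 genes, with the 7 stress genes in black (passed) or white (not passed) and other genes in orange (passed) or grey (not passed). HERPUD1 lies far below the bulk of genes, ASNS above it, XBP1 at the bright end, and DDIT3 and TRIB3 at the dim end.

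The ratios of 5 of the 7 genes differed between replicates in limma's F test at an adjusted p under 0.05, against 48.3% of all tested genes. They were HERPUD1, ASNS, ATF4, XBP1 and CALR. The dim genes DDIT3 and TRIB3 did not (adjusted p = 0.256 and 0.202). This test sets the 3 pools against the spread of arrays that carry the same pools. It shows differences between pools, which can lie in either cell type.

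Other genes of the same pathways were read through 7 lists, which do not count the members themselves. Without replicate 2, limma called 0 genes of any list, although 3890 of all tested genes had an unadjusted p under 0.05. Of 16 sensors and transducers 12 were tested. In blastocysts 2 were lower and none higher (16.7%, against 13.4% of all genes in either direction and 7.68% lower). They were MAP3K5, the kinase ASK1 downstream of IRE1 (-2.30 ± 0.37), and MBTPS1, the protease that cleaves ATF6 (-1.66 ± 0.34, with -0.09 by its other probe). EIF2AK3, which encodes PERK, gave -0.83 ± 0.28 (adjusted p = 0.0407) and missed the ratio required. ERN1, which encodes IRE1, gave -0.08 ± 0.09 from a dim probe. These last, and EIF2AK4 below, were named after their values were seen. The list median was -0.14, against -0.02 for all tested genes.

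Of 20 tested genes of eIF2alpha control and ATF4 partners, 4 were lower in blastocysts and none higher. That is 20%, against 13.4% of all genes in either direction and 7.68% lower in blastocysts. The list median was -0.04. ATF3, a stress-induced partner of ATF4, was the lowest (-3.11 ± 0.30, adjusted p = 0.00703), with granulosa signals over 30000 on 4 arrays. EIF2AK2, the double-stranded RNA kinase PKR, gave -1.94 ± 0.22. PPP1R15B, the constitutive partner of the eIF2alpha phosphatase, gave -1.77 ± 0.34, with signals over 30000 on 3 arrays. EIF2AK4, which encodes GCN2, did not pass (-0.31 ± 0.34, adjusted p = 0.261).

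ER chaperones and folding enzymes, the functional neighbours of CALR, gave 1 gene higher and 2 lower in blastocysts out of 29 (median -0.25). That is 10.3%, no more than the 13.4% of all genes. ERO1B, an oxidase that drives disulfide formation, was higher (1.73 ± 0.48). FKBP11, a prolyl isomerase, and ERP44, a thiol-linked retention factor, were lower (-2.37 ± 0.60 and -1.09 ± 0.37, with -0.42 and -0.02 by their other probes). With the 6 arrays fitted singly and the replicate as a block, 5 genes of the list passed. HSPA5, the chaperone BiP, reached -0.99 ± 0.28 (adjusted p = 0.0296) and just missed the ratio required. Like CALR, several chaperones were brightest in granulosa replicate 3, the pool in which CYP19A1 and FSHR were also brightest. The granulosa markers STAR, GATM and NR5A2 were dimmest in that pool. The granulosa log2 intensities in replicates 1 to 3 were 12.69, 13.06 and 13.67 for HSPA5 and 8.60, 9.05 and 10.26 for HSP90B1, the chaperone GRP94. For the disulfide isomerases they were 9.59, 10.26 and 10.76 for PDIA3 and 10.54, 10.54 and 11.14 for P4HB. Of 14 genes of this list whose ratio differed between replicates, 10 were brightest in granulosa pool 3, against 37.2% of the 6387 such genes on the array. The same count was 5 of 6 for sensors and transducers, 16 of 28 for ER translocation and secretion and 11 of 23 for ER-associated degradation. It was 5 of 13 for eIF2alpha genes, 5 of 15 for amino acid targets and 3 of 13 for synthetases. HSPA5, HSP90B1, PDIA3 and P4HB were named after their values were seen.

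**Figure D4:**
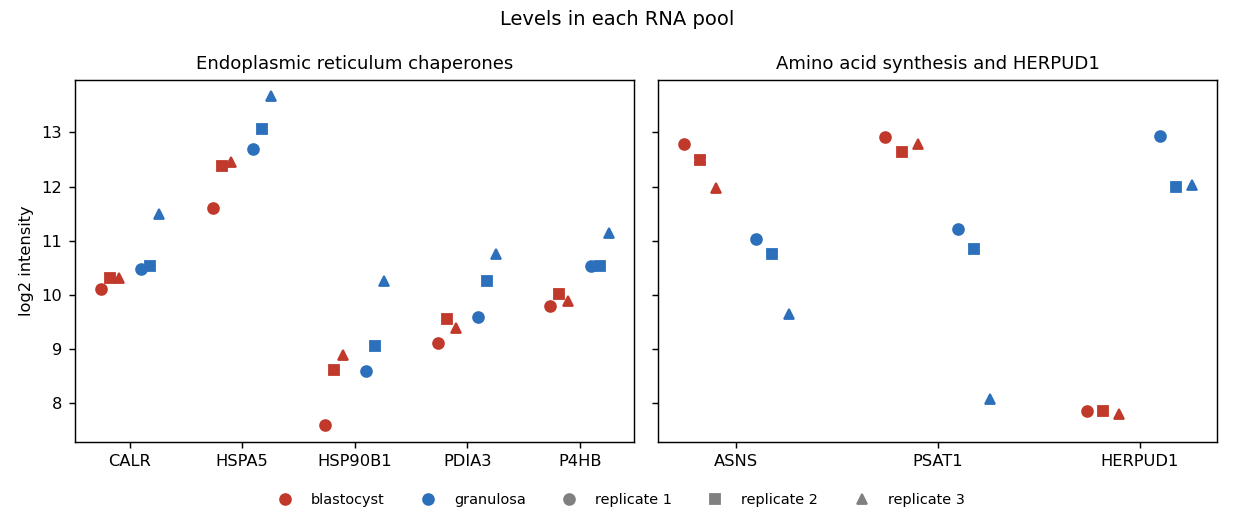
Normalized log2 intensity in each replicate for CALR and 4 other ER chaperones (left panel) and for ASNS, PSAT1 and HERPUD1 (right panel), blastocysts in red left of granulosa cells in blue. The chaperones are brightest in granulosa replicate 3, where ASNS and PSAT1 are dimmest, and HERPUD1 is brightest in granulosa replicate 1.

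In ER-associated degradation, the process HERPUD1 serves, 3 genes were higher and 4 lower in blastocysts out of 32 tested (21.9% in all, against 13.4% of all genes, median 0). The mannosidase-like EDEM1 (1.53 ± 0.47, with other probes down to 0.23), TMUB1 (1.06 ± 0.07) and FAF2 (1.04 ± 0.04) were higher. The ubiquitin ligase RNF139 (-1.74 ± 0.32), the lectin ERLEC1 (-1.56 ± 0.36) and SELENOK (-1.27 ± 0.44) were lower. No gene of this list that passed came near the HERPUD1 ratio. HERPUD2, the paralogue of HERPUD1, gave 0.24 ± 0.50 (adjusted p = 0.483) and was named after its values were seen. In the list of ER translocation and secretion, which holds many XBP1 targets, 2 of 38 were higher and 5 lower (18.4% in all, against 13.4% of all genes, median -0.13). The coat protein SEC24D (-3.14 ± 0.29), the retrieval receptor KDELR2 (-2.04 ± 0.77) and the coat protein SEC23A (-1.95 ± 0.54) were lower. SEC11C, a signal peptidase subunit (2.19 ± 0.41), and SEC63 (1.83 ± 0.08) were higher, though other SEC63 probes went down to -0.87.

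Amino acid response targets of ATF4 passed in both directions. Of 27 tested, 6 were higher and 4 lower in blastocysts, 37.0% in all against 13.4% of all genes, with a median of 0.08. Without replicate 1 there were 5 passing genes, and without replicate 3 there were 4. With ASNS on the blastocyst side were the leucine transporter gene SLC7A5 (2.80 ± 0.72), CTH, which makes cysteine (2.27 ± 0.58), and the mitochondrial folate enzyme MTHFD2 (1.86 ± 0.60, with 0.20 by its other probe). On the granulosa side were TXNIP, an inhibitor of thioredoxin (-4.59 ± 0.94, with -1.22 by its other probe), ALDH18A1, which starts proline synthesis (-3.22 ± 0.18), and SLC38A2, a transporter of small neutral amino acids (-2.28 ± 0.34, near the scanner limit, with probes up to 0.09). The serine synthesis gene PSAT1, named after its values were seen, had ratios of 1.71 and 1.78 in replicates 1 and 2 but 4.71 in replicate 3, and missed the threshold (2.73 ± 1.71, adjusted p = 0.106). Its granulosa level was 11.21, 10.85 and 8.08, lowest in replicate 3 like that of ASNS. Of 18 tested cytosolic aminoacyl-tRNA synthetase genes, NARS1, which charges the asparagine tRNA (1.83 ± 0.16, with probes from 0.31 to 2.20), and FARSB, a subunit for phenylalanine (1.00 ± 0.19), were higher and none lower. That is 11.1%, against 13.4% of all genes in either direction and 5.72% higher in blastocysts. The list median was 0.30.

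**Figure D5:**
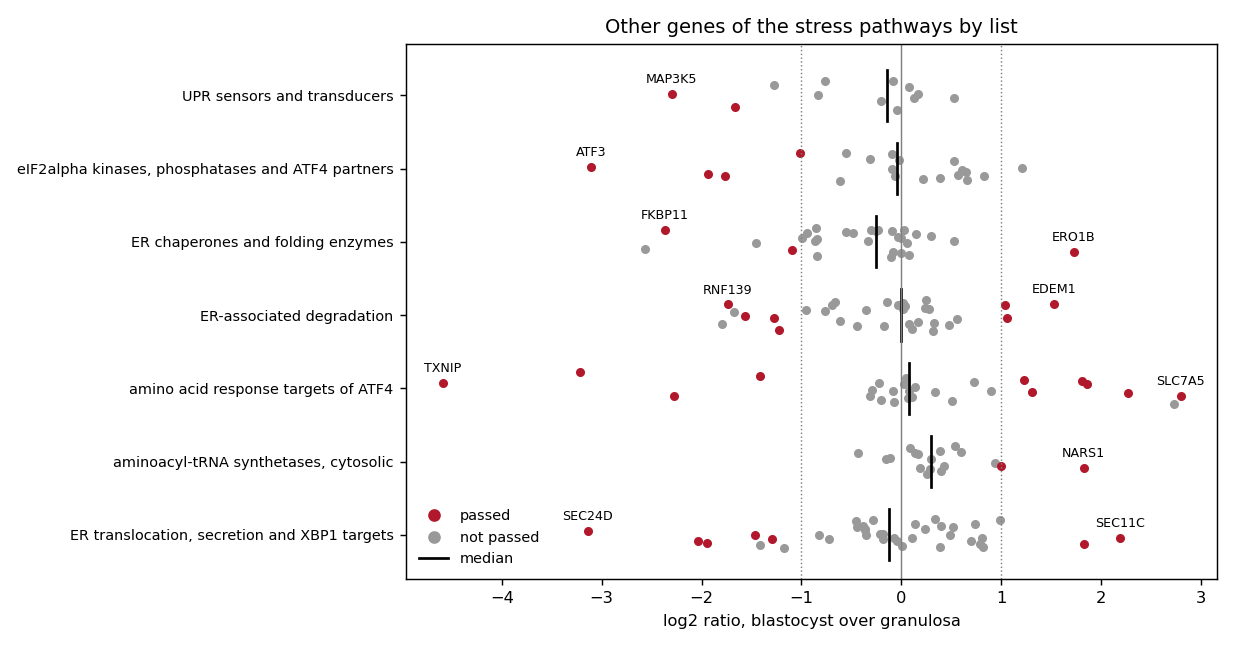
Log2 ratio of blastocyst over granulosa for the tested genes of 7 pathway lists, members left out. Red points passed, grey points did not, the black line is the median of a list and dotted lines mark -1 and 1. The list of amino acid response targets has passing genes on both sides.

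The genes whose normalized intensities over the 12 channels were most like those of a passing member are given as a description. The channels come from 6 arrays and 3 pools of each cell type and share the difference between cell types. For HERPUD1 they were VEZF1 (Pearson's r 0.998) and NRP1 (0.997), both lower in blastocysts (-1.90 and -6.87). For ASNS they were SLC66A1 (0.987), which did not pass, and ARRB1 (0.982), which was higher in blastocysts (2.76). For ATF4 they were NUDT12 (0.991) and DMAC2L (0.981), and for XBP1 EIF3M (0.995) and C10H14ORF166 (0.993). Of these last 4, NUDT12 passed (-1.33).

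The labelled cell types were checked against marker genes. Of 11 tested blastocyst markers, 6 were higher in blastocysts and none lower. POU5F1, NANOG, IFNT and DPPA3 were above background on every array in blastocysts and on none in granulosa cells. SOX2, CDX2, GATA3 and CDH1 were dim in both cell types and did not pass. KRT8, an epithelial keratin, was bright in granulosa cells too. Its log2 intensities were 15.17, 15.19 and 15.23 in blastocysts, against 11.06, 13.48 and 8.76 in granulosa cells, and it did not pass (adjusted p = 0.0931). GATA6 was below the filter. Of 11 tested granulosa markers, INHA, INHBA and FST were lower in blastocysts and none was higher. The remaining 8 did not pass. Of these, NR5A2 leaned towards blastocysts by its brightest probe (1.15 ± 0.74), with a probe down to -5.69. The STAR ratios changed sign, at -1.39, -3.69 and 2.92 in replicates 1 to 3. FOXL2 was below the filter.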

How the data were processed

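Amplified RNA of 3 blastocyst and 3 granulosa pools carried the dyes Cy3 and Cy5, per the labels. The deposited array files hold a mean raw intensity, a median local background intensity and a net intensity per spot and wavelength, per the file headers. The sources used here do not give the scanner or its software. The deposited value table is a score that equals one channel's log2 net intensity divided by the other's (100% of values within 1e-04), not a log ratio, with a minus sign on arrays titled blastocyst. Its column medians were -0.998, -0.998 and -1.00 on blastocyst arrays 1 to 3 and 1.00, 0.999 and 1.00 on granulosa arrays 1 to 3. On granulosa array 2 the quotient is Cy3 over Cy5, and all columns were read by wavelength.

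In R 4.3.3 with limma 3.58.1, raw intensities were corrected with normexp (offset 50), normalized by loess within arrays with control spots at weight 0, and turned to blastocyst over granulosa. Levels are channel intensities after Aquantile. A probe was tested where its raw intensity lay above 95% of the 153 negative control spots on 3 or more arrays for a cell type. Same-numbered arrays were averaged, since their deviations correlated at 0.84 to 0.93 across probes, and the titles give the numbers. Arrays of different numbers and opposite dye gave -0.59 to -0.20. Deviations were taken from the mean of each dye orientation, so negative values there follow from the positive ones and add no separate evidence. The 3 replicates' mean was set against 0 by lmFit and eBayes, with p-values adjusted over 35034 probes by Benjamini-Hochberg. On simulated data at this size, 88 of 100 probes changed by 2 on the log2 scale passed, and 12 of 34834 unchanged ones. Changes near the required ratio of 1, such as those of ATF4 and XBP1, were not simulated. The noise was drawn from a normal distribution and few probes were changed, so these rates may not hold in the real data. Precision is limited by the number of pools, 3 of each cell type. Of 21790 probes with 1 symbol, 20025 had a current RefSeq symbol (ARS-UCD2.0), 1524 were updated through a synonym and 241 kept theirs. The files name no genome build, so no positions are given. Figures used matplotlib 3.10.9.

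The genes and lists were chosen with earlier results of these data known. Named are all members and up to 3 passing genes per list and direction with the largest ratios and one sign on all arrays, plus the 2 genes most like each passing member. Alternatives changed the background correction, normalization, filter, replicates, dye orientation and intensity column.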

Additional observations from a re-analysis of the deposited data

Results flagged for a closer look

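For each of the 10 probes and both cell types, the 6 normalized log2 intensities were searched for a value far from the others. For 6 independent values, chance gives about 1 in 20 such cases. These 6 came from 3 pools, each read in both dyes, so that rate may not hold here. The second DDIT3 probe stood apart on the array of replicate 3 with blastocyst RNA in Cy3, in both channels. It read 8.07 in blastocysts, against 7.19 to 7.43 on the other arrays, and 9.31 in granulosa cells, against 7.50 to 8.05. The ratio there was -1.23, against -0.56 on the dye-swapped array of the same replicate, and without replicate 3 the probe gave -0.39. CALR read 9.99 in blastocysts on the array of replicate 1 with blastocyst RNA in Cy3, against 10.24 to 10.36 on the other arrays. The causes were not tested.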

How the results depend on the processing

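No member changed direction under any alternative run, with ranges of -4.79 to -4.10 for HERPUD1, 1.74 to 2.11 for ASNS, -1.20 to -0.92 for ATF4 and -1.38 to -0.67 for XBP1. Without normalization the median of all probes moved to -0.21. The member count was 2 with the authors' net intensities, for genes and for probes. Leaving out each replicate in turn gave 0 to 3 member probes and genes, 0 to 2541 probes and 0 to 1309 genes on the whole array, 0 to 2 sensors, 0 to 4 eIF2alpha genes, 0 to 2 chaperones, 0 to 5 degradation genes, 0 to 5 amino acid targets, 0 to 1 synthetases and 0 to 4 translocation genes. These minima came without replicate 2, and for sensors and chaperones without replicate 1 too. Without replicate 2, 8503 probes had an unadjusted p under 0.05. The chaperone count was 5 with normexp offset 16, 6 without normalization, 5 with the replicate block and dye term, 5 with no replicate block and 6 on arrays with blastocyst RNA in Cy5. The block, with a common correlation of 0.66, changed no member's call and otherwise no list count by over 1.5 times. The synthetase count was 1 with offset 16 and 1 on the Cy5 arrays, and the sensor count was 1 with the mean of a gene's probes. With probes left out for signals over 30000, XBP1 was not tested. The causes were not tested. Dim probes limit DDIT3, TRIB3 and the blastocyst side of HERPUD1.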

Other observations

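In the authors' deposited value table, read in the direction found for each column, HERPUD1, ATF4, XBP1 and all 3 DDIT3 probes were lower in blastocysts on 6 of 6 arrays, and ASNS and TRIB3 were higher on 6 of 6. CALR was higher in blastocysts on 1 of 6 arrays. The ASNS probe below background was higher on 3 of 6.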
